A study of Capra hircus with 36 samples.

Results

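The miR-192, miR-194 and miR-215 family was followed through 6 goat tissues, as RPM, the deposited counts scaled to a library total of 1000000. Members were chosen by name, as both arms and any copy of miR-192, miR-194 and miR-215, leaving out 5 rows that carry numbers of this family but whose names mark them as newly predicted by the authors. This gave 4 of the 1391 mature miRNAs: chi-miR-194-5p, chi-miR-194-3p, chi-miR-215-5p and chi-miR-215-3p. None of the 4 rows is for miR-192, so chi-miR-192-5p was not analysed here, and statements on the order of members cover these 4 rows only.

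A microRNA hairpin gives a 5p and a 3p strand, of which usually one is loaded into the silencing complex and kept. miR-192 and miR-215 have closely similar mature sequences and the same seed, the short stretch that pairs with target messages, whereas miR-194 has a different seed and is made from the same primary transcripts. The family is known for high levels in liver, kidney and gut epithelium, where hepatocyte nuclear factors drive its transcription, and for induction by p53. How the authors' counting divided reads between miR-192 and miR-215 was not tested. In the RefSeq gene table (ARS1.2 assembly), MIR215 and MIR194 are next to each other within IARS2, and MIR192 lies apart from them next to ATG2A.

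The study compared Tibetan Goats from 3000 m (high altitude) with Chuandong White Goats from 600 m (low altitude), all adult females of about 3 years. Liver, kidney, lung, spleen, heart and longissimus muscle were taken from 3 goats of each population, which gave 36 small RNA libraries. Population and altitude cannot be told apart in this design. The libraries held 7108635 to 14407748 counts, so that 3 counts corresponded to 0.208 to 0.422 RPM.

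The tissue labels were compared with miRNAs known to mark cell types. The hepatocyte marker miR-122-5p averaged 50587 RPM in liver and at most 81.3 RPM in any other tissue. It ranged widely among the liver libraries, from 6118 RPM in high-altitude goat 2 to 179917 RPM in high-altitude goat 3. The kidney list (miR-10a, miR-10b, miR-196a, miR-196b and miR-204, 10 rows) summed to a median of 465525 RPM in kidney, 97261 RPM in muscle, 86609 RPM in lung and 5454 RPM in liver. Its highest lung library (235345 RPM) was above its lowest kidney library (222549 RPM), so the list does not separate kidney from lung.

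miR-194-5p had the highest mean of the 4 members in every tissue but lung, with 171 RPM there against 183 RPM for miR-215-5p. It marked liver and kidney in every goat. In liver it reached 15812, 21743 and 13145 RPM in high-altitude goats 1, 2 and 3, and 11199, 22911 and 16881 RPM in low-altitude goats 1, 2 and 3. Kidneys of high-altitude goats held 1666, 3807 and 1720 RPM, and those of low-altitude goats 1192, 2504 and 4518 RPM. No kidney library reached the lowest liver library, and the 2 altitudes overlapped in both tissues. By mean level miR-194-5p ranked 10 of 1391 miRNAs in liver (16949 RPM ± 4634, SD, n = 6) and 32 in kidney (2568 RPM ± 1324, SD, n = 6).

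In the other tissues miR-194-5p was far lower. Spleen libraries held 279, 297 and 458 RPM in high-altitude goats, against 381, 217 and 434 RPM in low-altitude goats. Lung libraries held 211, 279 and 161 RPM in high-altitude goats, against 108, 140 and 130 RPM in low-altitude goats. Heart libraries held 197, 156 and 119 RPM in high-altitude goats, against 94.3, 90.4 and 108 RPM in low-altitude goats. In lung and in heart each high-altitude library was above each low-altitude library, whereas the spleen values overlapped. Muscle libraries held 95.4, 81.0 and 83.4 RPM in high-altitude goats, against 177, 78.8 and 87.7 RPM in low-altitude goats, with the highest value in low-altitude goat 1.

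The order of mean miR-194-5p levels in RPM was liver, kidney, spleen, lung, heart and muscle. The muscle mean was higher with TMM library sizes, as given in the last section, so its last place depends on the scaling. Liver exceeded kidney and kidney exceeded spleen in 6 of 6 goats, with no overlap between the libraries. Spleen exceeded lung and lung exceeded heart in 6 of 6 goats, and heart exceeded muscle in 5 of 6, but the ranges of these neighbours overlapped. Within a goat, the liver level was 3.74 to 9.49 times the kidney level, with a median of 8.40. The tissue specificity index, which is 0 for equal means and 1 for a single tissue, was 0.961.

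miR-215-5p, which shares its seed with miR-192, was lower and more variable. In liver it reached 1710, 489 and 455 RPM in high-altitude goats 1, 2 and 3, and 202, 4783 and 504 RPM in low-altitude goats 1, 2 and 3. Kidneys of high-altitude goats held 1126, 837 and 261 RPM, and those of low-altitude goats 21.3, 179 and 108 RPM. The liver values overlapped between altitudes, and the liver of low-altitude goat 2 stood far above the rest. In kidney each high-altitude library was above each low-altitude library.

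Outside these organs lung held the most miR-215-5p, with 270, 128 and 128 RPM in high-altitude goats, against 219, 194.02 and 158 RPM in low-altitude goats. Spleen held 219, 99.6 and 42.8 RPM in high-altitude goats, against 19.6, 128 and 25.02 RPM in low-altitude goats. Heart held 48.6, 9.60 and 11.0 RPM in high-altitude goats, against 4.91, 26.3 and 3.08 RPM in low-altitude goats. The 2 altitudes overlapped in lung, spleen and heart. Muscle was lowest, with 12.9, 2.67 and 9.47 RPM in high-altitude goats, against 3.92, 2.29 and 2.59 RPM in low-altitude goats, which also overlapped.

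**Figure D1:**
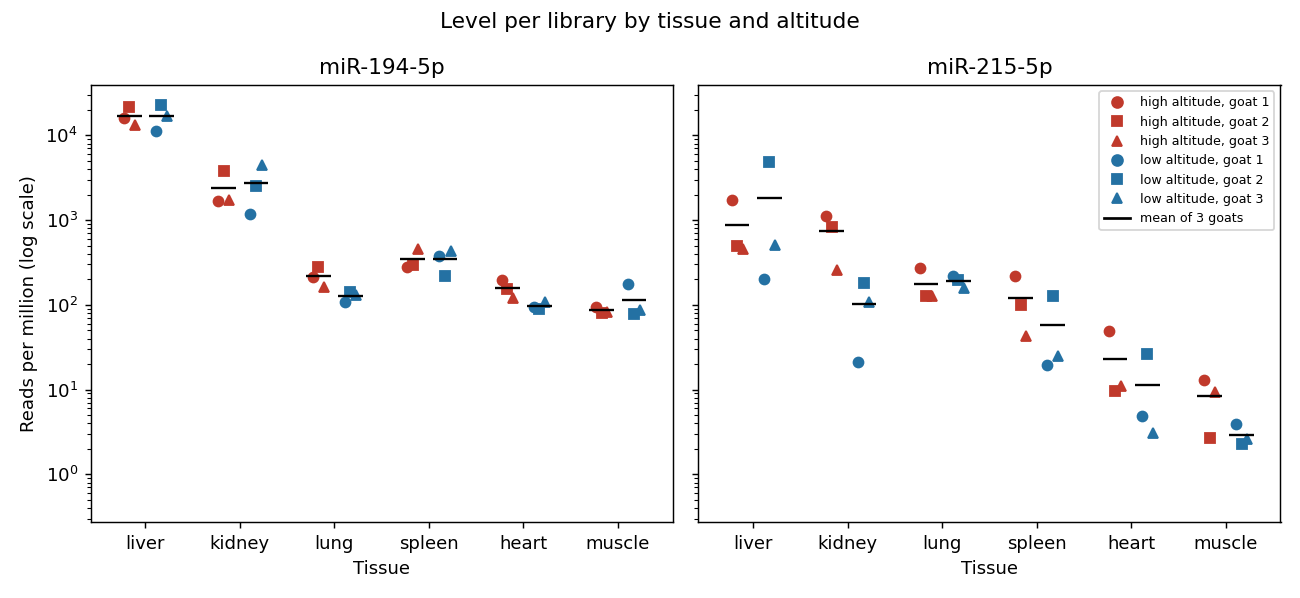
Level of miR-194-5p and miR-215-5p in each library, in RPM on a log scale, by tissue. Red points are high-altitude and blue points low-altitude goats, the symbol gives the goat number, and black lines are means of 3 goats. miR-194-5p in liver lies between 11199 and 22911 RPM at both altitudes, while miR-215-5p in kidney lies between 261 and 1126 RPM at high altitude and between 21.3 and 179 RPM at low altitude.

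Mean miR-215-5p levels fell in the order liver (1357 RPM ± 1760, SD, n = 6), kidney (422 RPM ± 450, SD, n = 6), lung (183 RPM ± 56.1, SD, n = 6), spleen, heart and muscle. The ranges of all neighbours in this order overlapped. Liver was above kidney in 5 of 6 goats, kidney was above lung in 3 of 6, the high-altitude goats, and lung was above spleen, spleen above heart and heart above muscle in 6 of 6. Without the liver library of low-altitude goat 2, left out after its value was seen, the liver mean was 672 RPM (SD 593, n = 5). The tissue specificity index of miR-215-5p was 0.894 with all libraries and 0.787 without that one.

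The 3p strands were rare. miR-194-3p reached 30.4, 85.1 and 24.997 RPM in liver of high-altitude goats 1, 2 and 3, and 35.8, 15.1 and 17.02 RPM in liver of low-altitude goats 1, 2 and 3. It lay between 1.62 and 10.95 RPM in kidney and at or below 1.62 RPM in the other 4 tissues. The 3p strand made up a median of 0.191% of the miR-194 counts of a liver library and 0.236% of those of a kidney library. miR-215-3p had 17 counts in all, spread over 9 of 36 libraries, and 0 counts in heart and muscle. Its pooled share of miR-215 counts in liver was 1 of 62109, or 0.00161% (95% exact Clopper-Pearson interval up to 0.00897%, counting error only).

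Tissues were compared in edgeR (quasi-likelihood test, Benjamini-Hochberg adjustment over all 1391 miRNAs, goat and tissue as terms), and a miRNA was called where the adjusted p was below 0.05 and the log2 fold change was 1.5 or more in size. Against the average of heart, lung, muscle and spleen, 3 of 4 members were higher in liver, as were 6.04% of all miRNAs. For miR-194-5p the log2 fold change was 6.21 (SE 0.19, edgeR adjusted p = 3.46e-21). It was 4.405 for miR-215-5p (SE 0.40, edgeR adjusted p = 1.03e-09) and 6.26 for miR-194-3p (SE 0.38, edgeR adjusted p = 1.60e-13). Since the family was named with its liver and kidney levels known, these values are a description of their size.

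In kidney, against the same 4 tissues, the same 3 members were higher, as were 9.2% of all miRNAs. The log2 fold change was 3.81 for miR-194-5p (SE 0.18), 3.21 for miR-215-5p (SE 0.42) and 4.13 for miR-194-3p (SE 0.39), with edgeR adjusted p of 5.79e-16, 7.28e-07 and 1.15e-09. That of miR-215-5p was 4.05 (SE 0.40) in high-altitude goats only and 1.96 (SE 0.55) in low-altitude goats only. Between the 2 organs, 2 of 4 members were higher in liver than in kidney, beside 3.02% of all miRNAs. These were miR-194-5p (log2 fold change 2.41, SE 0.28, edgeR adjusted p = 2.82e-07) and miR-194-3p (2.12, SE 0.57, edgeR adjusted p = 0.0134).

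The call of miR-194-3p was lost without high-altitude goat 1, high-altitude goat 2 or low-altitude goat 1, with edgeR adjusted p of 0.0884, 0.153 and 0.141. For miR-215-5p liver and kidney could not be separated (log2 fold change 1.19, SE 0.61, edgeR adjusted p = 0.266). The value was 0.48 (SE 0.57, edgeR adjusted p = 0.776) without the liver library of low-altitude goat 2, left out after its level was seen, and 0.33 (SE 0.56) without that goat. It was -0.24 (SE 0.58) in high-altitude goats only and 3.02 (SE 0.84) in low-altitude goats only. Relative to library totals, the scaling lowered the median log2 fold change of the 308 miRNAs averaging at least 10 RPM by 0.44 in liver against the 4 tissues and by 0.40 in liver against kidney.

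Altitude called none of the 4 members in any tissue by edgeR. Of all miRNAs it called 0% in liver, kidney, lung and heart, 0.144% in spleen and 0.0719% in muscle. Before adjustment, p was below 0.05 for 59 miRNAs in liver, 64 in kidney, 66 in lung, 80 in spleen, 89 in heart and 86 in muscle. In this order these were 4.24%, 4.6%, 4.74%, 5.75%, 6.4% and 6.18% of the 1391 rows, which include rows without reads. DESeq2 called 31, 29, 21, 36, 36 and 31 miRNAs in the same tissues, with 1 member among them, miR-215-5p in kidney. The exact test of edgeR called 8, 1, 2, 3, 11 and 5 miRNAs and none of the members. A single edgeR fit over the 36 libraries called 7, 2, 4, 5, 2 and 34, again without a member, and 30 of the 34 in muscle were lower at high altitude. The number of altitude calls thus depended on the test and on the libraries fitted together.

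The kidney difference of miR-215-5p had a log2 fold change of 3.21 for high over low altitude (SE 0.83, edgeR adjusted p = 0.717). By DESeq2 it was 3.25 with an adjusted p of 0.00723, whereas the adjusted p of the 13 other alternatives in edgeR ranged from 0.214 to 1. The log2 fold change stayed between 2.27 and 3.95 in these 14 alternatives. With both arms of miR-215 summed, a fit counted apart from them, it was 3.22 (SE 0.79). In the same kidney libraries miR-194-5p had a log2 fold change of -0.07 (SE 0.30, edgeR adjusted p = 1). It was 0.0266 with RLE size factors, 0.12 without low-altitude goat 3 and -0.19 with library totals only. MIR194 is the genomic neighbour of MIR215, but which primary transcript the miR-194-5p reads came from was not tested.

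Other cell types were looked at in the same kidneys, since in bulk tissue fewer cells of a type and less RNA per cell cannot be told apart. The striated muscle list (miR-1, miR-133a, miR-133b, miR-206, miR-208a, miR-208b and miR-499, 12 rows) summed to 1580, 1386 and 2254 RPM in high-altitude goats, against 185, 603 and 558 RPM in low-altitude goats. These groups did not overlap either, which held for 1 of the 9 cell type lists in kidney. miR-133b-5p was the most abundant of the list in kidney, and miR-208b-5p, miR-208a-5p and miR-1-5p were at 0. The epithelial list summed to 1754, 5564 and 1477 RPM in high-altitude goats, against 2456, 2482 and 8140 RPM in low-altitude goats, which overlapped. Of its rows averaging at least 10 RPM, 7 of 7 had a log2 fold change below 0 in kidney, with a median of -0.55, beside 154 of 283 miRNAs and a median of -0.08. The SE was larger than the value for 3 of the 7, miR-200b-3p (-0.03, SE 3.88), miR-200b-5p (-0.51, SE 2.97) and miR-141-3p (-0.55, SE 0.69), so their signs say little. The others were miR-200c-3p (-2.33, SE 0.36), miR-200a-3p (-0.89, SE 0.39), miR-200a-5p (-0.69, SE 0.42) and miR-429-3p (-0.36, SE 0.34), and edgeR called none of the 7. The part of these lists in the miR-215-5p values was not tested.

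Of the 12 pairs of member and tissue averaging at least 10 RPM, 3 had groups that did not overlap, each with the high-altitude libraries above. They were miR-215-5p in kidney and miR-194-5p in lung and heart. Among all miRNAs of that level the groups did not overlap for 20.8% in liver, 14.1% in kidney, 20.1% in lung, 24.6% in spleen, 34.7% in heart and 27.3% in muscle, so that the share of the members was near the background.

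miR-194-5p in lung had a log2 fold change of 0.93 (SE 0.31, edgeR adjusted p = 0.832). By DESeq2 it was 0.99 with an adjusted p of 0.00196, which passes the threshold on p but not the minimum log2 fold change of 1.5. In heart it was 0.53 (SE 0.31, edgeR adjusted p = 0.79). In lung the mesenchymal list (13 rows, led by miR-143-3p) summed to 155944, 164139 and 260000 RPM in high-altitude goats, against 298824, 312058 and 276939 RPM in low-altitude goats, and in heart to 184857, 119742 and 193130 RPM in high-altitude goats, against 72166, 79691 and 61527 RPM in low-altitude goats. Neither pair of summed levels overlapped, and the sum was lower at high altitude in lung and higher in heart. The sum is mainly miR-143-3p, and in heart 5 of its 7 rows averaging at least 10 RPM had a log2 fold change below 0. There miR-143-3p had 1.09 (SE 0.27) and miR-143-5p -2.06 (SE 0.40), neither called by edgeR, so the summed level does not speak for the list.

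Other lists of cell type markers also separated the altitudes in these tissues. Of 9 lists, 2 did so in lung and 5 in heart. The hepatocyte list (miR-122, 2 rows) held 72.7, 19.7 and 129.96 RPM in lungs of high-altitude goats and 13.01, 10.05 and 5.69 RPM in those of low-altitude goats. In heart the epithelial list lay between 12.99 and 50.9 RPM in high-altitude goats and between 7.69 and 12.5 RPM in low-altitude goats, with miR-200c-5p and miR-141-5p at 0. The leukocyte list, led by miR-142-5p, lay between 2007 and 3509 RPM against 1532 and 1926 RPM. The kidney list, led by miR-10b-5p, lay between 11668 and 19633 RPM against 8836 and 11485 RPM, and the ciliated list, led by miR-34c-5p, between 6.88 and 17.5 RPM against 1.58 and 5.10 RPM. The summed levels of all 5 lists were higher at high altitude in heart, and the part of any list in the miR-194-5p values was not tested.

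In liver, where the family was most abundant, the log2 fold change for altitude was 0.10 for miR-194-5p (SE 0.32) and 0.97 for miR-194-3p (SE 0.62), each with an edgeR adjusted p of at least 0.726. With single libraries left out, the value of miR-194-3p ranged from 0.66 to 1.66. The value of miR-194-5p turned to -0.0082 with library totals only. For miR-215-5p it was -0.72 (SE 1.16), and 1.45 (SE 0.91) without low-altitude goat 2. A test of whether the altitude difference varied with tissue passed for none of the 4 members at an adjusted p under 0.05 in edgeR, and for 0.144% of all miRNAs. For miR-215-5p the edgeR adjusted p was 0.681. Before adjustment, p was below 0.05 for 92 miRNAs in that test, or 6.61% of all rows.

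The level of miR-215-5p also followed the goat. Libraries with the same number within an altitude were taken as the same goat, since the study sampled 6 tissues from each animal. High-altitude goat 1 had the highest value of the 3 high-altitude goats in 6 of 6 tissues, on average 2.09 times the geometric mean of its group. Low-altitude goat 2 had the highest of the 3 low-altitude goats in 4 of 6 tissues, liver, kidney, spleen and heart, on average 2.28 times. For miR-194-5p these goats were highest in 2 of 6 tissues each.

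A test of differences between goats of the same altitude was added after this pattern was seen, so it is no independent support for it. miR-215-5p passed it (edgeR adjusted p = 0.0353), as did 0.791% of all miRNAs, and the other 3 members had an adjusted p of at least 0.832. The call was kept with RLE size factors, an expression filter and summed arms, with edgeR adjusted p of 0.0222, 0.0139 and 0.0224. It was lost when any 1 of the 6 tissues was left out, with edgeR adjusted p between 0.0513 and 0.345. Before adjustment, the edgeR p of miR-215-5p was 0.000228 with all tissues and between 0.000122 and 0.00761 with 1 left out.

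**Figure D2:**
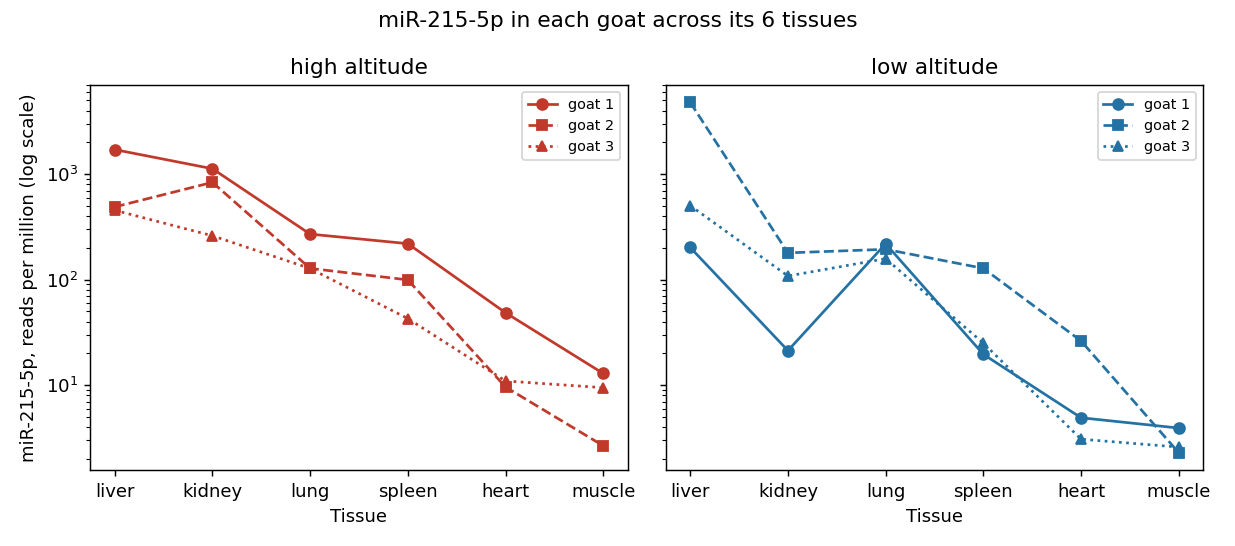
miR-215-5p in each goat across its 6 tissues, in RPM on a log scale, with high-altitude goats on the left and low-altitude goats on the right; each line joins the libraries of 1 goat. High-altitude goat 1 is the highest of its group in 6 of 6 tissues, and low-altitude goat 2 in 4 of 6.

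The ratio of miR-215 to miR-194, with both arms summed, was used in place of the ratio of miR-192 to miR-194, a choice made after seeing the data. Per 100 miR-194 counts there were 10.8, 2.24 and 3.45 miR-215 counts in liver of high-altitude goats 1, 2 and 3, and 1.797, 20.9 and 2.98 in liver of low-altitude goats 1, 2 and 3. In kidney there were 67.5, 21.9 and 15.1 in high-altitude goats, against 1.79, 7.15 and 2.39 in low-altitude goats. miR-194 outnumbered miR-215 in each liver, kidney, spleen, heart and muscle library, whereas in lung miR-215 outnumbered miR-194 in high-altitude goat 1 and the 3 low-altitude goats.

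Within goats the log2 ratio was lower in liver than in kidney by a mean of 1.03, written liver minus kidney as -1.03 (SD 1.92, n = 6, two-sided exact permutation p = 0.25, adjusted p = 0.375 over 3 tests). It was below 0 in 3 of 6 goats, which were the high-altitude goats with -2.64, -3.29 and -2.13, and was 0.01, 1.54 and 0.32 in the low-altitude goats. In kidney the log2 ratio was higher at high altitude by 3.17 (exact permutation p = 0.1, adjusted p = 0.3), where 0.1 is the smallest p that 3 against 3 allows. In liver the difference was -0.14 (exact permutation p = 0.9, adjusted p = 0.9).

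**Figure D3:**
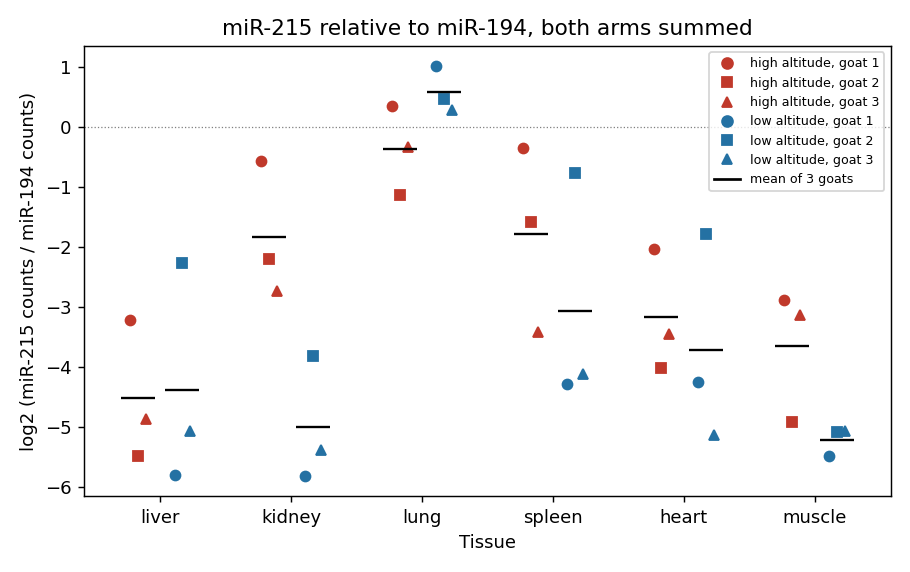
Log2 ratio of miR-215 to miR-194 counts, both arms summed, in each library by tissue; red is high altitude, blue is low altitude, symbols give the goat number and black lines are means of 3 goats. Values above 0, where miR-215 is the more abundant, are found in lung only, in 4 of 6 libraries.

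The miRNAs whose levels most resembled miR-194-5p over the 36 libraries, among 306 others averaging at least 10 RPM, were miR-204-5p (Pearson r 0.894), miR-9142-5p (0.865), miR-335-3p (0.856), miR-31-5p (0.830) and miR-101-3p (0.807). For miR-215-5p they were miR-203-3p (r 0.865), miR-31-5p (0.802), miR-148a-5p (0.776), miR-30a-5p (0.743) and miR-141-3p (0.741). Over the 6 tissue means r was 0.930 for miR-204-5p with miR-194-5p and 0.974 for miR-203-3p with miR-215-5p. The 2 main members had r of 0.739 with each other over the 36 libraries, which share tissues and goats. Within tissues (n = 6 each) r was 0.68 in liver, 0.30 in kidney, -0.26 in lung, -0.79 in spleen, 0.51 in heart and 0.05 in muscle, so the overall value did not hold within each tissue. miR-31-5p stood in both lists, with a mean of 1779 RPM in liver and 113 RPM in kidney.

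Other miRNAs known to be linked to p53 (miR-34a, miR-34b, miR-34c, miR-143, miR-145, miR-107, miR-15a, miR-16a and miR-16b, 23 rows) were compared in the same fits. In liver against the 4 tissues 1 was higher and 4 were lower, beside 84 higher and 39 lower of all 1391 miRNAs (120 and 24 with library totals only). The higher one was miR-107-5p (log2 fold change 13.81, SE 2.52), at a mean of 999 RPM in liver and 934 RPM in kidney. Its level was present or absent by library: it was at 0 in 2 of 6 liver and 1 of 6 kidney libraries, and in lung and muscle it had counts in 1 of 6 libraries each, with 856 and 241 RPM. The means of this row are thus no level shared by the libraries. The median log2 fold change of the 13 rows averaging at least 10 RPM was -0.44, and -0.12 over all 308 miRNAs at that level. The 4 that were lower were both arms of miR-34b and of miR-34c, known from ciliated cells and highest here in lung, where miR-34c-5p averaged 5608 RPM. In kidney miR-107-5p was again higher, and miR-16a-5p, both arms of miR-34b and miR-34c-5p were lower, beside 128 higher and 38 lower of all 1391 miRNAs. The log2 fold change in kidney was below 0 for 12 of the 13 rows averaging at least 10 RPM, with a median of -1.15, beside 148 of 308 miRNAs at that level and a median of 0.03. In liver against kidney 2 were higher, miR-34a-5p (log2 fold change 1.79, SE 0.37) and miR-15a-5p (1.64, SE 0.27), beside 42 higher and 64 lower of all miRNAs (55 and 54 with RLE size factors, 66 and 44 with library totals only).

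The miR-200 family, which keeps cells epithelial (miR-200a, miR-200b, miR-200c, miR-141 and miR-429, 9 rows), was higher in liver against the 4 tissues for 7 of 9 rows and in kidney for 7 of 9, beside 84 and 128 of all 1391 miRNAs. Lung, one of the 4 tissues averaged, had a higher mean RPM than liver for 9 of 9 rows and than kidney for 5 of 9, with miR-141-3p at 6533 RPM in lung, 546 RPM in liver and 843 RPM in kidney. The family was lower in liver than in kidney for 2 of 9, miR-200a-3p (log2 fold change -3.30, SE 0.54) and miR-429-3p (-2.98, SE 0.68), as were 64 of all 1391 miRNAs. The medians of its 5 rows averaging at least 10 RPM were 2.92, 4.16 and -2.22 in these comparisons, beside -0.12, 0.03 and -0.01 over all miRNAs at that level. Whereas miR-194-5p was higher in liver than in kidney, miR-200a-3p averaged 204.2 RPM in liver and 1498 RPM in kidney. By altitude, no row of either list was called in any tissue by edgeR.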

How the data were processed

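The authors aligned small RNA reads to the ARS1 assembly by Bowtie, quantified mature miRNAs and deposited whole-number counts per mature miRNA and library, which are not normalized. The submitters' processing notes also name CASAVA 1.8. RPM is the count scaled to a library total of 1000000. Members and lists were chosen with earlier results of these data known. Tests used edgeR 4.0.16 with TMM scaling in R 4.3.3 on all 1391 rows, with DESeq2 1.42.0 as an alternative. Each SE was worked back from the edgeR test, as the size of the log2 fold change over the square root of its F statistic. An SE above the value thus restates a small F statistic. The edgeR fits were run on simulated data with large altitude changes, the same spread for all miRNAs and no goat effect. The alternatives were not. Whether the fits would find a change among goats as variable as those for miR-215-5p was not tested. Ratios used 0.5 added counts and exact permutation tests over all arrangements, computed with NumPy 2.4.6. SciPy 1.17.1 gave their adjustment and the exact interval. Correlations used log2(RPM + 1). The most similar miRNAs were the 5 with the highest r. Goats of the 2 altitudes are different animals. Within an altitude, libraries of the same goat deviated together only weakly over 308 miRNAs, with a mean r of 0.113 at high and 0.0229 at low altitude. The pairing by goat comes from the study's sampling and from the numbers in the labels. In the RefSeq table MIR192, MIR194 and MIR215 were matched by name. The genes spanning them or next to them were read from positions in it, and no coordinates are printed. The planned miR-192 ratio was not analysed here. Intervals cover counting error only.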

Additional observations from a re-analysis of the deposited data

Results flagged for a closer look

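In 12 groups of 6 libraries of a tissue, both altitudes together, 3 had a library far from the others in RPM. For normally spread values chance gives about 1 in 20 groups. The rule was not applied on the log scale of the figures. miR-215-5p in liver reached 4783 RPM in low-altitude goat 2, with the next library at 1710 RPM. miR-194-5p in muscle reached 177 RPM in low-altitude goat 1, with the next at 95.4 RPM. miR-194-3p in liver reached 85.1 RPM in high-altitude goat 2, with the next at 35.8 RPM. In that library miR-194-5p was 21743 RPM. The cause of these values was not tested.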

How the results depend on the processing

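The alternatives were other size factors (RLE), library totals only, expression filters, other tests, summed arms, the replicate block, 1 fit over the 36 libraries, and single libraries or goats left out. Counts of called members for altitude kept 0 in 95 of 96 alternatives; DESeq2 called 1 member in kidney; the cause was not tested. The fit with the replicate block called 0 members in each tissue. The goats of the 2 altitudes are different animals, and the mean correlation of deviations of same-numbered libraries was 0.03 in liver, -0.28 in kidney, 0.05 in lung, 0.21 in spleen, 0.44 in heart and 0.0038 in muscle. In heart the 3 pairs correlated (0.51, 0.35 and 0.45), and miR-194-5p with the block was 0.49 (SE 0.33). The block changed the sign of miR-215-5p in liver (0.081) and lung (-0.022). Calls among all miRNAs, 0, 0, 0, 2, 0 and 1 in the main edgeR fits of liver, kidney, lung, spleen, heart and muscle, were 7, 2, 4, 5, 2 and 34 in 1 fit over the 36 libraries and 6, 0, 0, 9, 2 and 1 with the expression filter. Of 179 altitude values of miR-194-5p and miR-215-5p, 16 changed sign, none of them called. Over all tissues, 7 of 80 values of miR-194-3p (as from 0.04 to -0.59 in muscle) changed sign. The same held for 5 of 76 of miR-215-3p (kidney, from -0.08 to at most 1.72). Among the 16, those with library totals only were miR-194-5p in liver (-0.0082) and spleen (0.00070) and miR-215-5p in lung (-0.12). miR-194-5p in kidney was 0.0266 with RLE, 0.0265 with DESeq2 and 0.0075 with summed arms. With single libraries left out, the log2 fold change of miR-215-5p ranged from -1.76 to 1.45 in liver, from -0.30 to 0.41 in lung and from -0.35 to 2.32 in heart. That of miR-194-5p ranged from -0.0029 to 0.27 in liver, from -0.17 to 0.12 in kidney, from -0.23 to 0.25 in spleen and from -0.53 to 0.17 in muscle. In liver against kidney, 1 member was called with summed arms, which leaves 2 members to test, and 1 in low-altitude goats only, where the adjusted p of miR-194-3p was 0.487; with single goats left out the number was 1 to 2. miR-215-5p there was -0.24 in high-altitude goats only. The other tissue counts stayed at 3, or 2 with arms summed, and without the replicate block 3, 3 and 2 members were called. Of all miRNAs, DESeq2 called 245 higher and 147 lower in liver and 198 and 174 in kidney against the 4 tissues, and 241 and 161 in liver against kidney, beside 84 and 39, 128 and 38, and 42 and 64 in edgeR. The interaction gave 0 members in all 10 alternatives. The test between goats called 0 members with liver, 0 with kidney, 0 with lung, 0 with spleen, 0 with heart and 0 with muscle left out; it called 1 with RLE, the expression filter and summed arms; the cause was not tested. The miR-215 to miR-194 difference stayed negative in 9 of 9 alternatives, none past the threshold. The tissue specificity index of miR-215-5p moved from 0.894 to 0.787 without 1 liver library. Of 47 alternative levels, 3 moved by more than 1 SD: miR-215-5p in lung was 246 RPM and miR-194-5p in spleen 593 RPM without the most abundant miRNA in the total, and miR-194-5p in muscle was 180.2 RPM with TMM library sizes. Counts at or under 3, as for miR-215-3p in most libraries, do not allow a comparison at this depth.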
